A study of Homo sapiens with 8 samples.

Results

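The leukocyte integrin genes ITGAL, ITGAM, ITGAX, ITGB2, ITGA4, ITGA5, ITGA6, ITGB1 and ITGB7 and the integrin ligand gene ICAM3 were examined in NB4 cells by RNA-seq. The 10 genes were chosen by symbol, and all 10 were listed in every library, among 37526 gene names shared by the 8 libraries. NB4 is an established cell line from acute promyelocytic leukemia (APL) and carries the PML/RARα fusion, which blocks granulocytic maturation until all-trans retinoic acid (ATRA) is given. The study asked how the histone H3K9 demethylase KDM3B acts on APL cells and on their response to ATRA. There were 4 groups with 2 libraries each. The shNC group held control NB4 cells without ATRA, and the shKDM3B group held NB4 cells with an shRNA against KDM3B, also without ATRA. The shNC_ATRA and shKDM3B_ATRA groups held the same lines given 1 µM ATRA. All groups were stably transduced with the same lentiviral vector carrying puromycin resistance. The control is an empty vector in the sample labels and a scrambled shRNA in the methods, and the labels do not say which of the study's KDM3B shRNAs these libraries carried. ATRA was given for 24 or 48 h, and the time is not assigned to single libraries. Nothing states whether the replicates were separate cultures, so that the p-values measure only the spread between these libraries, which may be technical.

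Integrins are heterodimers of an α and a β subunit that carry adhesion signals across the cell membrane in both directions. The β2 integrins are found on leukocytes: ITGB2 encodes their common β chain (CD18), which pairs with the products of ITGAL (CD11a, in LFA-1), ITGAM (CD11b, in Mac-1) or ITGAX (CD11c). Mac-1 serves adhesion, complement uptake and phagocytosis by neutrophils and monocytes, and surface CD11b is a common marker of granulocytic maturation. The product of ITGB1 pairs with those of ITGA4, ITGA5 and ITGA6 into receptors for VCAM1 and fibronectin, for fibronectin, and for laminin. ITGB7 encodes a β chain that pairs with the α4 chain into the receptor for the gut addressin MADCAM1, and ICAM3 is a leukocyte surface ligand of LFA-1.

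The libraries held 9708739 to 33017787 read pairs assigned to genes. In 5 libraries 8.49% to 9.62% of pairs were assigned to no gene feature by HTSeq. In shNC_ATRA replicate 2 and both shKDM3B_ATRA libraries the share was 50.02% to 51.45%. These 3 libraries are called the high-no-feature libraries here. Such pairs are called outside genes below, although they may also lie in introns or on the strand opposite a gene. The untreated files listed 56470 names and the treated files 56609, so that treatment and name set cannot be told apart. KDM3B itself was at 187 and 188 CPM (counts scaled to the library size) in shNC, 76.3 and 86.1 CPM in shKDM3B, 196 and 121 CPM in shNC_ATRA, and 52.4 and 57.3 CPM in shKDM3B_ATRA, with the knockdown libraries below the control libraries in both settings. The promyelocytic markers MPO and CTSG were present in the untreated cells at 4282 to 9512 CPM and 105 to 149 CPM, and ELANE, PRTN3 and AZU1 were near 0. The erythroid markers HBB, HBA1 and HBG1 were at 0 in every library. Of the 6 megakaryocyte and platelet markers PF4, GP9 and ITGB3 were at 0 in every library, ITGA2B was at 1.68 to 7.78 CPM and GP1BA reached 1.79 and 1.91 CPM in shKDM3B_ATRA. The 6 T cell markers summed to between 10.4 and 20.3 CPM in untreated and 0.211 and 1.84 CPM in treated libraries. The 7 monocyte markers summed to 27.4 to 128 CPM with CD163 at 0, and the 5 B cell markers to 6.32 to 25.8 CPM with MS4A1 and PAX5 at 0. In bulk RNA, fewer cells of a type and less RNA per cell cannot be told apart.

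First, the change with ATRA was determined in control cells. ATRA raised 7 of the 10 genes, lowered ITGA5, and left ITGA4 and ITGB1 without a call. Calls were made in the edgeR quasi-likelihood test at an unadjusted P below 0.05 with a fold change of at least 1.5. The limits follow the study's methods. By this rule 15% of all 12429 genes tested were called higher and 10.8% lower, which is 1866 and 1347 genes, and with library size alone in place of TMM scaling 1599 were called higher and 1703 lower. The 10 genes had a median log2 fold change of 2.13, against 0.02 over all genes tested. The 8 called genes also passed at a Benjamini-Hochberg adjusted p below 0.05, a limit that 7.84% of genes passed upwards and 5.06% downwards. When either shNC library was left out, 0 genes of the whole table passed that limit in edgeR, while the same number of members stayed called at the unadjusted P. Both shNC_ATRA libraries lay above both shNC libraries in 7 members and below them in 2, orders found in 26.9% and 29.5% of 12578 genes.

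Among the β2 integrins, ITGAM (chr16:31259967-31332892, plus strand, hg38) was at 20.5 and 26.0 CPM in shNC and at 216 and 154 CPM in shNC_ATRA. It was at 9.86 and 14.9 CPM in shKDM3B and at 104 and 106 CPM in shKDM3B_ATRA. No groups overlapped for this gene: the control libraries with ATRA were highest, followed by the knockdown libraries with ATRA, the untreated controls and the untreated knockdown. ATRA raised ITGAM by 3.02 ± 0.26 (log2 fold change ± SE) in control cells (edgeR adjusted p = 0.000737) and by 3.12 ± 0.20 in knockdown cells (edgeR adjusted p = 2.04e-06).

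ITGAX lies beside ITGAM on the same strand (chr16:31355134-31382999) and encodes the α chain of p150,95. It was at 5.72 and 10.9 CPM in shNC, 4.06 and 8.46 CPM in shKDM3B, 98.3 and 91.4 CPM in shNC_ATRA, and 48.5 and 79.5 CPM in shKDM3B_ATRA. The treated libraries were above all untreated ones, and the untreated groups overlapped. The rise with ATRA was 3.54 ± 0.34 (log2) in control cells and 3.37 ± 0.34 in knockdown cells. With single libraries left out the knockdown value ran from 2.92 to 4.03, the latter without shKDM3B replicate 2.

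ITGAL (chr16:30472658-30523567) encodes the α chain of LFA-1. It was at 17.5 and 8.43 CPM in shNC, 8.16 and 10.2 CPM in shKDM3B, 45.6 and 42.8 CPM in shNC_ATRA, and 21.2 and 20.6 CPM in shKDM3B_ATRA. Its untreated groups overlapped, and the treated knockdown libraries were close to each other and below both treated controls. ATRA raised it by 1.81 ± 0.36 (log2) in control cells and by 1.23 ± 0.20 in knockdown cells. The control value was 2.39 without shNC replicate 1 and 1.36 without shNC replicate 2.

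ITGB2 (chr21:44885953-44931989, minus strand), the shared β chain, was at 150 and 167 CPM in shNC, 115 and 157 CPM in shKDM3B, 503 and 425 CPM in shNC_ATRA, and 355 and 431 CPM in shKDM3B_ATRA. The control and knockdown libraries overlapped both without and with ATRA. ATRA raised ITGB2 by 1.59 ± 0.21 (log2) in control cells and by 1.58 ± 0.17 in knockdown cells, a smaller fold change than those of its α partners ITGAM and ITGAX.

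**Figure D1:**
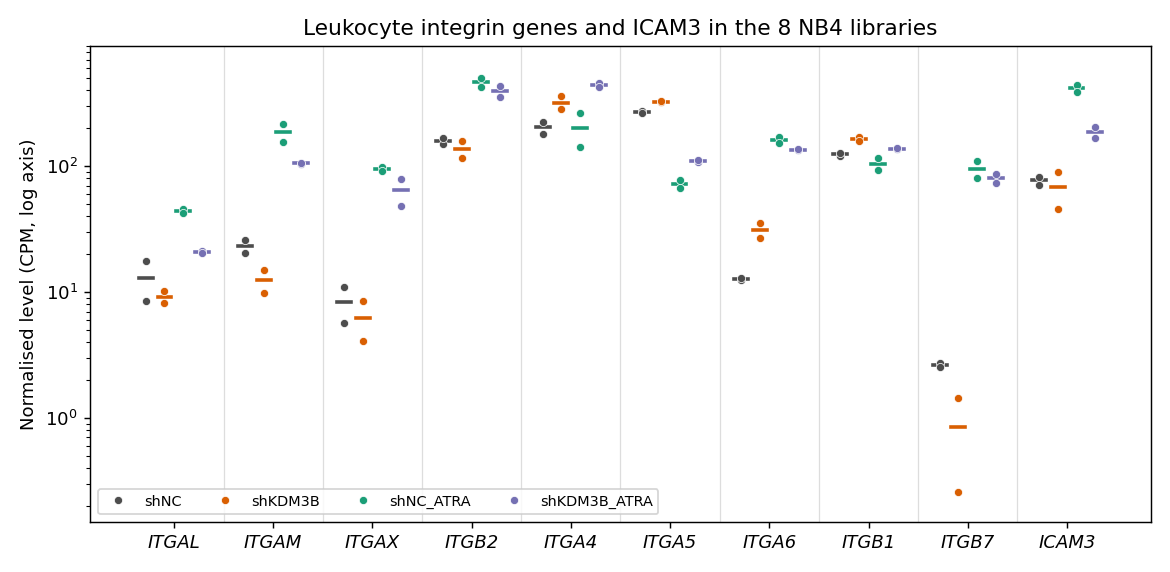
Level of the 10 genes in each of the 8 libraries, in CPM on a log axis, grouped by gene on the x axis. Points are libraries (2 per group), short lines are group means, and colours are the groups. For ITGAM, ITGAX, ITGAL, ITGB2, ITGA6, ITGB7 and ICAM3 every treated library was above every untreated one, and for ITGA5 every treated library was below.

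Next, the make-up of the β2 family was described per kilobase of exon, a ratio within a library that does not depend on scaling between libraries. The 3 α chains summed to 0.302 and 0.306 of ITGB2 in shNC, 0.199 and 0.226 in shKDM3B, 0.821 and 0.762 in shNC_ATRA, and 0.562 and 0.541 in shKDM3B_ATRA. No groups overlapped: the ratio was higher in treated than in untreated libraries, and lower in the knockdown than in its control at either setting. ITGAM was the most abundant of the 3 in every library, with mean shares of 62.0% ± 5.22 (SD, n = 2) in shNC, 54.6% ± 0.94 in shKDM3B, 64.2% ± 4.36 in shNC_ATRA and 62.7% ± 6.15 in shKDM3B_ATRA. The share of ITGAL was 12.2% to 28.7% in the untreated libraries and 6.53% to 9.78% in the treated ones, and that of ITGAX was 13.1% to 24.6% and 24.6% to 35.2%. Exon lengths came from GENCODE and not from the annotation the authors counted on, so that the shares carry its transcript models. With counts not scaled by length ITGAM was at 44.5% of the 3 genes in shKDM3B, and the order of the groups in the ratio was kept.

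**Figure D2:**
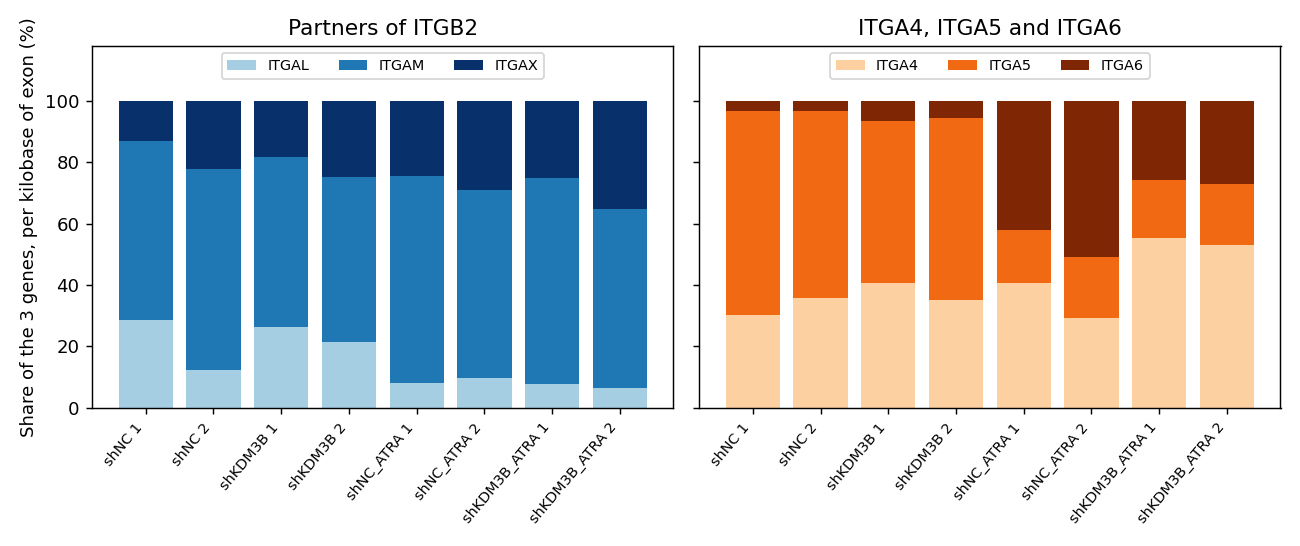
Share of each α chain in its family in each library, per kilobase of exon, in percent of the 3 genes shown. Left, ITGAL, ITGAM and ITGAX, the partners of ITGB2, with ITGAM the largest share in all 8 libraries. Right, ITGA4, ITGA5 and ITGA6, where ITGA6 took 3.30% to 6.44% without ATRA and 25.7% to 50.7% with it. The shares on the right rest on ITGA4 counts that leave out the overlapping gene CERKL.

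In contrast to the β2 genes, the β1 genes moved in different directions with ATRA. ITGA5 (chr12:54395261-54419266, minus strand), the fibronectin receptor α chain, was at 273 and 265 CPM in shNC, 320 and 330 CPM in shKDM3B, 77.7 and 67.0 CPM in shNC_ATRA, and 108 and 112 CPM in shKDM3B_ATRA. The replicates were close and no groups overlapped, with the treated controls lowest and the untreated knockdown highest. ATRA lowered it, by -1.86 ± 0.21 (log2) in control cells (edgeR adjusted p = 0.00186) and by -1.51 ± 0.12 in knockdown cells (edgeR adjusted p = 7.82e-06).

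ITGA6 (chr2:172427354-172506459, plus strand), the laminin receptor α chain, was at 12.4 and 13.0 CPM in shNC, 35.4 and 27.0 CPM in shKDM3B, 169 and 154 CPM in shNC_ATRA, and 134 and 137 CPM in shKDM3B_ATRA. Without ATRA the knockdown libraries were above the controls, and with ATRA they were below them. ATRA raised it by 3.70 ± 0.22 (log2) in control cells (edgeR adjusted p = 0.000186) and by 2.18 ± 0.16 in knockdown cells (edgeR adjusted p = 4.80e-06).

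The common β1 chain gene ITGB1 (chr10:32887273-33005792, minus strand) was at 120 and 128 CPM in shNC, 172 and 157 CPM in shKDM3B, 117 and 92.3 CPM in shNC_ATRA, and 136 and 139 CPM in shKDM3B_ATRA. Its treated libraries were slightly below the untreated ones of the same line, and the log2 fold change with ATRA was -0.21 ± 0.21 in control cells and -0.21 ± 0.12 in knockdown cells, neither called. Per kilobase, ITGA4, ITGA5 and ITGA6 together were between 6.72 and 8.36 times ITGB1 in all libraries, and between 3.86 and 5.18 times with counts not scaled by length. Within that sum ITGA5 went from a mean of 63.6% in shNC to 18.7% in shNC_ATRA and ITGA6 from 3.32% to 46.3%. In the knockdown cells the same shares went from 56.1% to 19.4% and from 5.91% to 26.4%. These 3 genes were set together after their values were seen. In shNC_ATRA replicates 1 and 2 the ITGA6 share was 41.9% and 50.7%, and the ITGA4 share 40.7% and 29.3%. ITGA4 overlaps CERKL, whose counts are described below.

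ITGB7 (chr12:53191323-53207282, minus strand) had the largest fold change of the 10 genes with ATRA in either line. It was at 2.71 and 2.52 CPM in shNC, 0.257 and 1.44 CPM in shKDM3B, 109 and 80.7 CPM in shNC_ATRA, and 73.4 and 86.5 CPM in shKDM3B_ATRA. In the untreated libraries these levels rested on 54, 60, 5 and 47 read pairs. ATRA raised it by 5.21 ± 0.28 (log2) in control cells (edgeR adjusted p = 0.000135) and by 6.42 ± 0.41 in knockdown cells (edgeR adjusted p = 1.85e-06). The latter value was 5.79 without shKDM3B replicate 1 and 8.28 without shKDM3B replicate 2. ZNF740, on the opposite strand, covers 42.3% of the ITGB7 exon length, and the counting was not stated to use strand, so that reads of the overlap cannot be assigned with certainty. ZNF740 was counted at 964 to 1500 read pairs in every library.

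ICAM3 (chr19:10333776-10339661, minus strand) was at 71.4 and 82.4 CPM in shNC, 45.2 and 90.0 CPM in shKDM3B, 440 and 389 CPM in shNC_ATRA, and 168 and 204 CPM in shKDM3B_ATRA. The untreated groups overlapped and the treated ones did not, with the controls higher. ATRA raised ICAM3 by 2.46 ± 0.22 (log2) in control cells and by 2.84-fold in knockdown cells (edgeR adjusted p = 0.00140). On the log2 scale the knockdown value was 1.05 without shKDM3B replicate 1 and 2.09 without shKDM3B replicate 2. Of its exon length 75.4% is covered on the opposite strand by an lncRNA whose reads were not analysed here.

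In knockdown cells, as in the controls, 7 genes were called higher and ITGA5 lower with ATRA, where 24% of 12756 genes were called higher and 18.3% lower. These 8 calls also held at an adjusted p below 0.05 in edgeR, as 23% of genes did upwards and 17.3% downwards. Both treated libraries lay above both untreated ones in 8 members, ITGA4 included, and below in 2, as in 36.2% and 39.8% of 12612 genes. The knockdown response to ATRA compares 2 high-no-feature libraries with 2 others. The share of reads outside genes and ATRA therefore cannot be told apart in it.

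**Figure D3:**
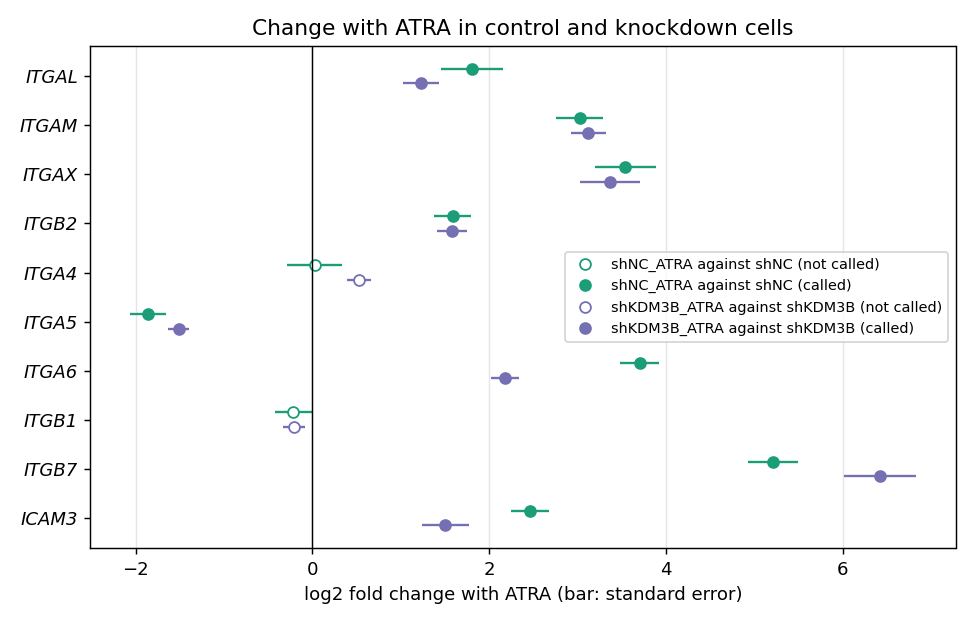
Log2 fold change with ATRA of the 10 genes in control cells (shNC_ATRA against shNC) and in knockdown cells (shKDM3B_ATRA against shKDM3B), with bars of 1 standard error. Filled points passed the call rule and open points did not. ITGA5 was the called gene below 0 in both lines, and ITGB7 reached 5.21 and 6.42.

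The order of the 10 genes by level per kilobase of exon differed between untreated and treated cells. In shNC the mean level was highest for ITGA5 (36.4 CPM per kilobase), followed by ICAM3 (27.6), ITGB2 (21.7), ITGA4 (19.03), ITGB1 (8.52), ITGAM (4.09), ITGA6 (1.90), ITGAL (1.32), ITGAX (1.18) and ITGB7 (0.587). The libraries of ITGB2 and ITGA4 overlapped, as did those of ITGAL and ITGAX. In shNC_ATRA the order was ICAM3 (149), ITGB2 (63.6), ITGAM (32.6), ITGA6 (24.2), ITGB7 (21.3), ITGA4 (18.95), ITGAX (13.4), ITGA5 (9.80), ITGB1 (7.18) and ITGAL (4.48). There ITGA6, ITGB7, ITGA4 and ITGAX overlapped, each with the next. In shKDM3B_ATRA ICAM3 (66.6) and ITGB2 (53.8) were also highest, and ITGA4 (41.7) came next, above ITGA6 (20.3) and ITGAM (18.5). The place of ITGA4 in the treated groups leaves out the counts of the overlapping gene CERKL, described below. In shKDM3B ITGA5 (44.01) was highest, as in shNC, followed by ITGA4 (30.0) and ICAM3 (24.2), whose libraries overlapped.

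Bases upstream of the start site are shown for the β2 gene with the marker role, for the gene with the largest rise and for the gene that fell, so that these promoters can be compared. Each line holds positions 250 to 21 before the start of a RefSeq transcript (GRCh38.p14), read along the gene. Capitals mark the letters GAGGAA or AGGTCA on either strand, a core of a PU.1-type site and a form of the retinoic acid receptor half-site. Other forms of the half-site were neither searched for nor marked.
ITGAM: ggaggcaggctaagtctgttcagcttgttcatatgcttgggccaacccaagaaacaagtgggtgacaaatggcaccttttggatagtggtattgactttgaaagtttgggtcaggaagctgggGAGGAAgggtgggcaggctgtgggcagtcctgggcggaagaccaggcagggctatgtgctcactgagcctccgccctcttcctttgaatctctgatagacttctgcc
ITGB7: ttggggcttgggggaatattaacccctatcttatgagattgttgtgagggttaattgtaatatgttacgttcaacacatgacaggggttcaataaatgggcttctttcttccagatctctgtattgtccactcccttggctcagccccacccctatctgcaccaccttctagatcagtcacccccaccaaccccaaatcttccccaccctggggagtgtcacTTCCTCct
ITGA5: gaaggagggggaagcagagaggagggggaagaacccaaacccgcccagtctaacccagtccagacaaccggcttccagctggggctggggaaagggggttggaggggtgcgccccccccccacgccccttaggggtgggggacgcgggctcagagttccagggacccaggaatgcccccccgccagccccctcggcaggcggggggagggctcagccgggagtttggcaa
These windows are chr16:31259725-31259954 on the plus strand for ITGAM, and chr12:53207272-53207501 and chr12:54419287-54419516 on the minus strand for ITGB7 and ITGA5. RefSeq promoters were found for 7 of the 10 genes, with none for ITGAX, ITGAL and ITGB2. GAGGAA was found 127 bases before the start in ITGAM, 184 before in 1 ITGB1 promoter, 45 before in 1 ICAM3 promoter and, on the opposite strand, 28 before in ITGB7. The upstream 250 bases of ITGA4, ITGA5 and ITGA6 did not hold these letters. GAGGAA was in 23.6% of 35116 windows of that length and its longer form GAGGAAG, which contains it, in 11.2%. AGGTCA was in 12.1% of windows and in none of those of the 7 genes. Such matches are a description of letters and not of binding.

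Then, the effect of KDM3B knockdown was examined in cells without ATRA. ITGA4 and ITGA6 were called higher in shKDM3B than in shNC, and ITGAM and ITGB7 lower. Of all 13855 genes tested 3.48% were called higher and 3.53% lower. Both shKDM3B libraries lay above both shNC libraries in 4 members and below them in 2, as in 21.2% and 19.6% of 12378 genes. No member passed at an adjusted p below 0.05 in edgeR, where 3 genes of the whole table did (0.0217% lower and 0% higher) and 1411 had an unadjusted P below 0.05. By DESeq2 the adjusted p was below 0.05 for 1 of the 10 genes, ITGA6, among 153 genes called higher and 125 lower. The adjusted p in edgeR depended on the fit: without a low-count filter 2 members higher and 2 lower passed, among 298 and 257 genes, and with a replicate block 2 and 2, among 428 and 352.

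ITGA6 differed most clearly, with 35.4 and 27.0 CPM against 12.4 and 13.0 CPM, a log2 fold change of 1.29 ± 0.21 (edgeR adjusted p = 0.105). For ITGAM the values of 9.86 and 14.9 CPM were below 20.5 and 26.0 CPM, a log2 fold change of -0.90 ± 0.25 (edgeR adjusted p = 0.239). The call of ITGB7 (log2 fold change -1.53 ± 0.61, edgeR adjusted p = 0.438) rested on shKDM3B replicate 1 with its 5 read pairs, and without this library the value was -0.86 and was not called, while it was -3.33 without shKDM3B replicate 2. ITGA4, described below, was 0.66 ± 0.18 higher (edgeR adjusted p = 0.227), and was not called when shNC replicate 1 (0.50) or shKDM3B replicate 1 (0.47) was left out.

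The other 6 genes were not called. The log2 fold change was -0.40 ± 0.41 for ITGAX, -0.49 ± 0.34 for ITGAL, -0.22 ± 0.18 for ITGB2, -0.18 ± 0.29 for ICAM3, 0.27 ± 0.14 for ITGA5 and 0.41 ± 0.14 for ITGB1. Single libraries decided several of these: ITGAX was called lower without shNC replicate 1 (-0.78) or shKDM3B replicate 2 (-1.05), ITGAL without shNC replicate 2 (-0.92), and ICAM3 without shKDM3B replicate 2 (-0.78). Other libraries turned the sign: ITGAX was at 0.15 without shNC replicate 2 and 0.02 without shKDM3B replicate 1, ITGAL at 0.13 without shNC replicate 1, and ICAM3 at 0.23 without shKDM3B replicate 1.

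With ATRA, ITGAM, ITGAL and ICAM3 were called lower in shKDM3B_ATRA than in shNC_ATRA, and ITGA4 and ITGA5 higher. Of all 14281 genes tested 2.42% were called higher and 4.37% lower, which is 345 and 624 genes. This background depended on single libraries: 3409 genes were called higher and 1951 lower without shNC_ATRA replicate 2, 1291 and 1205 without shNC_ATRA replicate 1, 40 and 94 without shKDM3B_ATRA replicate 1, and 66 and 218 without shKDM3B_ATRA replicate 2. Both shKDM3B_ATRA libraries lay above both shNC_ATRA libraries in 3 members and below them in 5, as in 23.6% and 26.3% of 12199 genes. In edgeR 0 genes of the whole table passed at an adjusted p below 0.05, 1383 had an unadjusted P below 0.05, and the adjusted p of the 5 called members was between 0.502 and 0.505. With DESeq2 all 5 passed at an adjusted p below 0.05, among 121 genes higher and 236 lower. In edgeR 2 members higher and 2 lower passed without shNC_ATRA replicate 1, among 1009 and 952 genes, 1 and 4 without shNC_ATRA replicate 2, among 3280 and 1814 genes, and 0 without either shKDM3B_ATRA library.

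ICAM3 was at 168 and 204 CPM against 440 and 389 CPM, a log2 fold change of -1.15 ± 0.17. ITGAL was at 21.2 and 20.6 CPM against 45.6 and 42.8 CPM, a log2 fold change of -1.08 ± 0.16. Both calls held when any library was left out, with values from -1.30 to -1.02 for ICAM3 and from -1.13 to -1.02 for ITGAL. ITGAM was at 104 and 106 CPM against 216 and 154 CPM, and its log2 fold change of -0.82 ± 0.21 became -0.54, under the fold limit, without shNC_ATRA replicate 1. ITGA5 was at 108 and 112 CPM against 77.7 and 67.0 CPM, a log2 fold change of 0.61 ± 0.13, and was under the fold limit (0.50) without shNC_ATRA replicate 2. When either shKDM3B_ATRA library was left out, ITGAM, ITGA4 and ITGA5 had P values above 0.05.

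The control group with ATRA held 1 high-no-feature library and the knockdown group 2. Leaving out shNC_ATRA replicate 1 compares high-no-feature libraries only. There the log2 fold change was -1.02 for ITGAL, -1.05 for ICAM3, 1.66 for ITGA4, 0.72 for ITGA5, -0.54 for ITGAM and -0.50 for ITGAX, with the lone control library assumed to vary like the pair.

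The genes without a call had log2 fold changes of -0.56 ± 0.28 for ITGAX, -0.24 ± 0.18 for ITGB2, -0.25 ± 0.12 for ITGA6, -0.24 ± 0.21 for ITGB7 and 0.40 ± 0.17 for ITGB1. ITGAX was at -0.62 without shNC_ATRA replicate 2 and at -0.96 without shKDM3B_ATRA replicate 2. With any single library left out its value ran from -0.96 to -0.25. Maturation markers moved in the same comparison: the 10 neutrophil markers summed to 462 and 472 CPM in shNC_ATRA and 176 and 186 CPM in shKDM3B_ATRA, and the 6 promyelocytic markers to between 623 and 737 CPM and between 2230 and 3140 CPM. MPO made up nearly all of the promyelocytic sum: with ATRA it was at 729 and 616 CPM in the control and 3126 and 2219 CPM in the knockdown, whereas CTSG was at 4.10 and 2.30 CPM against 2 and 1.71 CPM and was not called (-0.79 ± 0.47). In the interaction MPO and MS4A3 were called with a smaller fall in knockdown cells (1.10 and 1.20) and CTSG with a larger one (-1.15). Of the 6 neutrophil markers tested 4 were called lower (S100A8, MMP8, CAMP and CSF3R). Without ATRA the same sums were 121 and 126 CPM against 75.8 and 77.4 CPM for the neutrophil markers, and between 4479 and 5561 CPM against between 8601 and 9737 CPM for the promyelocytic ones. Most of the neutrophil sum without ATRA came from MMP9 and CSF3R. MMP9 was at 52.2 and 50.6 CPM in shNC and 17.8 and 25.6 CPM in shKDM3B. CSF3R was at 66.9 and 65.4 CPM against 54.7 and 48.4 CPM. With ATRA MMP9 fell in control cells (-4.80), where 5 of the 6 tested neutrophil markers rose. The part of these markers in the integrin differences was not tested.

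**Figure D4:**
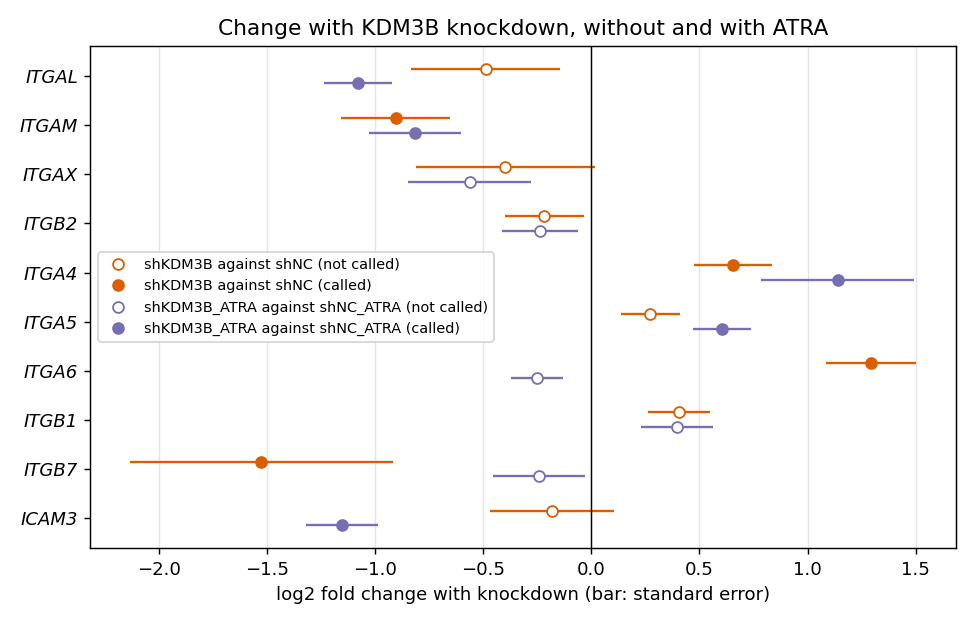
Log2 fold change with KDM3B knockdown of the 10 genes, without ATRA (shKDM3B against shNC) and with ATRA (shKDM3B_ATRA against shNC_ATRA), with bars of 1 standard error. Filled points passed the call rule and open points did not. ITGAM was called below 0 and ITGA4 above 0 in both settings, and ITGA6 was 1.29 without and -0.25 with ATRA.

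To determine whether the response to ATRA itself differed between the lines, the interaction was tested over all 8 libraries. ITGA6 was the one member called, with a smaller rise in knockdown cells by -1.55 ± 0.23 (log2), an unadjusted P of 0.000253 and an edgeR adjusted p of 0.962. Of 13528 genes 1.27% were called with a larger and 2.72% with a smaller change in knockdown cells, 607 had an unadjusted P below 0.05 and 0 passed at an adjusted p below 0.05 in edgeR, while 8 larger and 17 smaller changes passed by DESeq2. ITGA6 was called when any single library was left out, with values from -1.68 to -1.34, and at an adjusted p by DESeq2 and by edgeR without a low-count filter (22 and 47 genes in all). Its untreated knockdown level was already above the control, and the treated levels were 169 and 154 CPM against 134 and 137 CPM.

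The responses of ITGAM, ITGAX and ITGB2 differed by less than their errors, with differences of 0.09 ± 0.35 (log2), -0.17 ± 0.60 and -0.02 ± 0.28. The difference of ITGAL, -0.59 ± 0.46, was larger than its error and was not called. ICAM3 (-0.97 ± 0.43, unadjusted P of 0.0549) and ITGB7 (1.24 ± 0.68, unadjusted P of 0.109) were not called either. Their calls depended on libraries and settings: ICAM3 was called at -1.38 without shKDM3B replicate 1 and at -1.07 without shNC_ATRA replicate 2 (where 1264 of 14002 genes were called lower), and ITGB7 at 3.12 without shKDM3B replicate 2 and at 1.44 without shNC_ATRA replicate 1. In the other direction ICAM3 was at -0.34 without shKDM3B replicate 2 and ITGB7 at 0.61 without shKDM3B replicate 1. ITGAL was called at -1.21 without shNC replicate 1, and ITGA4 at 1.00 without shNC_ATRA replicate 1, with values of -0.16 for ITGAL without shNC replicate 2 and 0.10 for ITGA4 without shNC_ATRA replicate 2. The differences were 0.48 ± 0.41 for ITGA4, 0.33 ± 0.18 for ITGA5 and -0.01 ± 0.22 for ITGB1.

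ITGA4 (chr2:181457202-181538940, plus strand), the α chain of VLA-4, was at 180 and 226 CPM in shNC, 358 and 282 CPM in shKDM3B, 262 and 142 CPM in shNC_ATRA, and 460 and 428 CPM in shKDM3B_ATRA. The knockdown libraries were above their controls in both settings, and the 2 treated control libraries stood apart from each other. Exons of CERKL, a ceramide kinase-like gene on the opposite strand, cover 26.4% of the ITGA4 exon length. CERKL was at 0 in the 5 libraries with few reads outside genes and at 133, 186 and 199 CPM in the 3 high-no-feature ones. In shNC_ATRA replicate 2 it made up 48.4% of the sum of both genes.

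When the counts of ITGA4 and CERKL were summed, a choice made after their values were seen, the treated controls were at 262 and 275 CPM and the treated knockdown libraries at 647 and 627 CPM. The log2 fold change with knockdown under ATRA went from 1.14 ± 0.35 to 1.25 ± 0.11 (edgeR adjusted p = 0.502). The change with ATRA went from 0.03 ± 0.31 to 0.44 ± 0.21 in control cells, not called, and from 0.53 ± 0.14 to 1.05 ± 0.14 in knockdown cells, where it passed the call rule (edgeR adjusted p = 0.000231). The difference between the responses went from 0.48 to 0.59 ± 0.24 and was called (edgeR adjusted p = 1). The change with knockdown without ATRA, 0.66 ± 0.18, was not altered, since CERKL was at 0 in those libraries. The sum adds counts to the high-no-feature libraries alone, so that a larger change with ATRA was fixed in advance. The calls gained by it are therefore no separate support. How reads were assigned between the 2 genes was not tested.

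**Figure D5:**
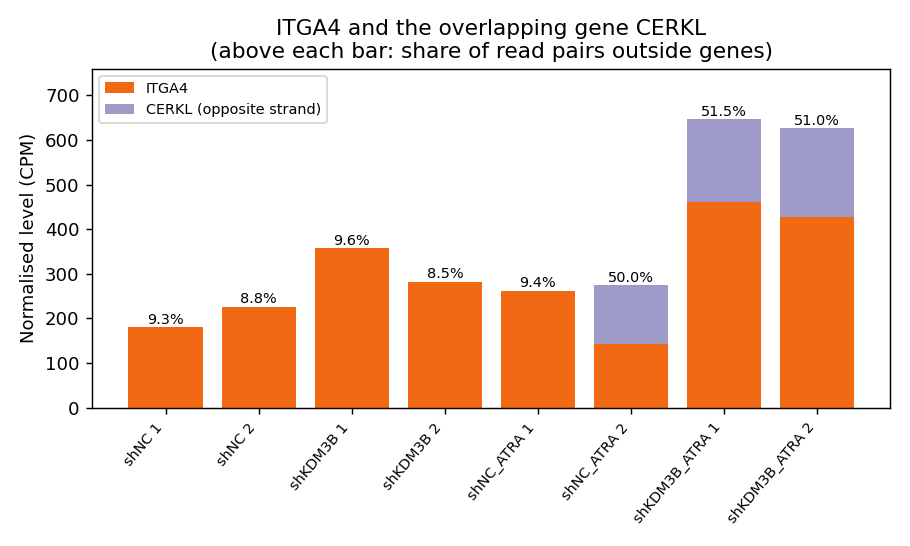
Level of ITGA4 and of CERKL, which overlaps it on the opposite strand, in each library, in CPM and stacked. The percentage above each bar is the share of read pairs outside genes, that is, with no gene feature in the counting. CERKL was counted in the 3 libraries with 50.02% to 51.45% outside genes and at 0 in the others.

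The genes around integrin function were then counted by list. Of 30 genes for integrin activation and adaptors, 26 were tested in control cells, and 11 rose and 2 fell with ATRA, with a median log2 fold change of 0.44 against 0.02 over all genes, of which 15% were called higher and 10.8% lower. At an adjusted p below 0.05 in edgeR 6 rose and 1 fell, against 7.84% and 5.06% of all genes. The leading genes were PXN (paxillin, 6.38), SKAP2 (2.72) and APBB1IP (the Rap1 effector RIAM, 2.53). PXN was at 1.71 and 3.98 CPM in shNC and 260 and 209 CPM in shNC_ATRA. FERMT1 (kindlin-1) fell by 1.61 on the log2 scale, and TGFB1I1 (the paxillin relative Hic-5), at or under 3 counts in the treated libraries, was at least 4.24-fold lower. In knockdown cells 9 of 25 rose and 4 fell, with PXN (4.67), SKAP2 (2.91) and APBB1IP (2.74) leading and filamin A (FLNA, -1.62), talin 2 (TLN2, -1.48), FERMT1 (-1.48) and PARVB (-1.18) lower. In that comparison 24% of all genes were called higher and 18.3% lower, so that the number that fell was near the background.

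Of the signalling genes that act downstream of integrins, 6 of 9 rose in control cells and 7 of 9 in knockdown cells with ATRA, and 0 fell by the edgeR call rule. Of all genes 15% and 24% were called higher in these comparisons. The Src family kinase gene FGR went from 3.26 and 1.80 CPM in shNC to 553 and 436 CPM in shNC_ATRA (log2 fold change 7.65), and from 0.462 and 0.460 CPM in shKDM3B to 198 and 252 CPM in shKDM3B_ATRA (8.96). TYROBP (2.52 and 2.37), a signalling adaptor with an activation motif, rose in both lines, LYN (1.42) was the third gene in control cells and FCER1G (1.12) in knockdown cells. Under knockdown without ATRA 4 of 9 were called lower, namely FGR (-2.44), FCER1G (-1.33), TYROBP (-0.87) and VAV3 (-0.84). With ATRA 3 of 9 were called lower, FCER1G (-1.62), FGR (-1.13) and TYROBP (-1.03). Of all genes 3.53% and 4.37% were called lower in these comparisons. The edgeR adjusted p was between 0.128 and 0.284 for those without ATRA and 0.502 for those with it.

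Of 18 integrin ligand genes, 7 were tested in control cells, and 5 rose and 1 fell with ATRA, where 15% of all genes were called higher and 10.8% lower. ICAM1, the main LFA-1 ligand, rose by 2.81 (log2), SPP1 (osteopontin) by 2.24 and LAMA5, a laminin chain, by 5.84, whereas LAMC1 fell by 0.81 on the log2 scale. LAMA5 was at 1.41 CPM in shNC_ATRA replicate 1 and 53.6 CPM in replicate 2, the high-no-feature library. In knockdown cells 9 of 10 rose and LAMC1 (-1.16) fell, where 24% of all genes were called higher and 18.3% lower. JAM3, a junctional ligand of Mac-1, was at least 53.4-fold higher and LAMB1 at least 16.5-fold higher, each against untreated knockdown libraries at 0, and LAMA5 rose by 6.58. JAM3 was at 0 in the 5 other libraries and at 6 to 8.30 CPM in the high-no-feature ones. LAMB1 was at 0 to 0.0613 CPM against 1.21 to 2.84 CPM, LAMA5 at 0.103 to 1.41 CPM against 33.2 to 53.6 CPM, and JAM2 at 0 to 0.336 CPM against 1.00 to 1.37 CPM. These 4 of the 9 rises thus moved with the share of reads outside genes. Under knockdown SPP1 (-1.31) was the one ligand called lower without ATRA, and 0 of 10 were called with ATRA by edgeR, where 3.48% and 3.53% of all genes were called higher and lower without ATRA and 2.42% and 4.37% with it.

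Of 17 other integrin subunits few were expressed. ITGB4, a laminin receptor β chain that pairs with the α6 chain, was at 0.853 and 0.671 CPM in shNC and 6.19 and 4.88 CPM in shNC_ATRA and rose by 2.89 (log2), and ITGAD, a further partner of ITGB2, by 1.82 (edgeR adjusted p = 0.0938). In shKDM3B_ATRA ITGB4 was at 1.68 and 1.31 CPM and was called lower than in shNC_ATRA (-1.88), and ITGAV was called higher (0.69). In knockdown cells ITGAE (1.00), a partner of the β7 chain, and ITGAV (0.68) rose with ATRA. Without ATRA the platelet subunit ITGA2B (-1.51) and ITGB5 (-1.62) were called lower in shKDM3B. Among the adaptors PXN (1.26) was called higher and FYB1 (-1.15) and APBB1IP (-0.63) lower without ATRA, and ZYX (-0.76) and FYB1 (-0.62) lower with it. The values here for knockdown against control, without or with ATRA, all had edgeR adjusted p values of 0.130 or more. For the rises with ATRA in knockdown cells the edgeR adjusted p was 0.0009355 for ITGAE and 0.00614 for ITGAV.

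Finally, the genes with the pattern most like that of ITGAM and ITGB2 were listed, by Pearson correlation of log2(CPM + 1) over the 8 libraries among 8721 genes with a mean of at least 10 CPM. For ITGAM these were LGALS9C, HEXIM1, PIK3R5, CYFIP2 and ATP2A1, with r from 0.993 to 0.996, and 287 genes had r above 0.95. For ITGB2 they were SIRPA, MERTK, SMOX, ITGAX and PARP10, with r from 0.993 to 0.998, and 315 genes had r above 0.95. LGALS9C has near-identical copies among which reads can be split. The 8 points share 4 conditions and the same depth differences, so that these values describe a pattern in these libraries.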

How the data were processed

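RNA of 8 NB4 libraries, 2 in each of 4 groups, was sequenced as 150 bp read pairs on an Illumina HiSeq instrument from TruSeq libraries. The deposited values are raw counts of read pairs per gene name, made by the authors with HISAT2 on hg38 and HTSeq. The methods name Trim Galore for trimming, and the submitters' processing notes also list Picard, SAMtools and DESeq2. Tool versions and the strand setting are not given in the sources used here. HTSeq's summary lines were left out of totals, and 0 columns of other samples had to be set aside.

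Each pair of groups was fitted in edgeR 4.0.16 (R 4.3.3) with its quasi-likelihood F test, TMM scaling and filterByExpr on the names listed in all its libraries. The interaction was fitted over all 8 libraries. Calls needed an unadjusted P below 0.05 and a fold change of at least 1.5, the study's rule, and Benjamini-Hochberg adjusted p values are given beside them. All 10 genes passed the filter in every fit. A permutation of 2 against 2 libraries cannot give a two-sided p below 0.333 and was not used. Levels are CPM on TMM-scaled sizes, and levels between genes are per kilobase of merged exon (GENCODE release 44). Gene positions are those of that annotation. The 5 fits were run on simulated counts with known changes, drawn with the same spread for every gene and without high-no-feature libraries. That check covers the fitting steps and not how these libraries behave.

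The members and the gene lists were chosen with earlier results of these data known. Named genes are the members, KDM3B, up to 3 called genes per list, direction and comparison with the largest change, and the 5 genes most like ITGAM and ITGB2. PARVB, VAV3, JAM2, CERKL, ZNF740 and the markers were named after their values were seen. Alternatives were other scaling, filters, DESeq2 1.42.0, adjusted p, all 8 libraries in one fit, a replicate block, each library left out and unscaled shares. DESeq2's adjusted p and the sum of ITGA4 and CERKL were added after seeing the data. Protein sequences were not analysed here.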

Additional observations from a re-analysis of the deposited data

Results flagged for a closer look

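The change of ITGA6 with ATRA differed between the 2 lines by -1.55 ± 0.23 (log2, knockdown minus control) in the edgeR interaction test, with an unadjusted P of 0.000253 and an adjusted p of 0.962.

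CERKL, which overlaps ITGA4 and belongs to no comparison, was counted at 133 CPM in shNC_ATRA replicate 2 and at 186 and 199 CPM in the shKDM3B_ATRA libraries, and at 0 in both untreated groups and in shNC_ATRA replicate 1.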

How the results depend on the processing

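In the ATRA comparisons the 10 genes gave 7 higher and 1 lower in control cells under every alternative run, and 7 to 8 higher and 1 lower in knockdown cells when libraries were left out. No called value changed sign, while some uncalled ones did, such as ITGA4 with ATRA in control cells (-0.48 to 0.38 with libraries left out). Without ATRA, knockdown gave 0 higher and 0 lower at an adjusted p in edgeR, 2 and 2 at an adjusted p without a low-count filter or with the replicate block, 1 higher and 0 lower at an adjusted p in DESeq2, 1 higher with all 8 libraries in one fit, and 1 to 2 higher and 1 to 4 lower with libraries left out, where 469 to 961 of all genes were called higher and 457 to 689 lower. With ATRA, it gave 0 and 0 at an adjusted p in edgeR and 0 to 2 higher and 2 to 4 lower with libraries left out, in fits that called from 40 to 3409 of all genes higher and from 94 to 1951 lower. The interaction gave 1 higher and 2 lower without a low-count filter (366 and 575 of 21090 genes) and with the DESeq2 test (177 and 324 of 13528), 0 lower at an adjusted p in edgeR, and 0 to 2 higher and 1 to 2 lower with libraries left out, where 121 to 1168 of all genes were called higher and 157 to 1264 lower. With the replicate block the interaction gave 2 lower among 371 genes, since ICAM3 (-0.96, P of 0.0499) joined ITGA6. Numbers were not shown to pair the samples: deviations of same-numbered libraries correlated at -0.06, 0.17, 0.39 and 0.02 in the 4 comparisons, with 2 pairs in each. Over all genes the replicate block called 179 higher and 346 lower for knockdown with ATRA, against 345 and 624 without it, and changed no other member's call. Library size alone in place of TMM moved the median of all genes with ATRA in control cells from 0.02 to -0.09 (log2), where lower calls then outnumbered higher ones (1703 against 1599), and split the interaction calls 234 higher and 279 lower against 172 and 368. Without length scaling the share of ITGAM among the β2 partners was 52.1% in shNC, 44.5% in shKDM3B, 56.8% in shNC_ATRA and 55.7% in shKDM3B_ATRA, and the ratio to ITGB2 was 0.282 in shNC, 0.697 in shNC_ATRA and 0.484 in shKDM3B_ATRA, since the exon lengths of the genes differ. Other causes were not tested. With 2 libraries per group a left-out library leaves a lone sample that is assumed to vary like the others. Low counts limit ITGB7 in untreated cells, where 5 read pairs were the fewest.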
